A study of Mus musculus with 64 samples.

Results

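Complement components and receptors were followed in microglia sorted from the mouse retina. The 9 genes were chosen by name, with earlier results of these data known. They are the 3 chains of C1q (*C1qa*, *C1qb*, *C1qc*), the components *C4b*, *C3* and *Cfb*, the stabiliser *Cfp*, and the receptors *C3ar1* and *C5ar1*. Each of the 9 symbols matched 1 of the 25239 genes in the count tables. In the data, *C3*, *C4b* and *Cfb* were scarce in naive microglia. At day 12 after adeno-associated virus (AAV) they passed a test of a rise over 2-fold in 5 of the 6 groups of sex and age. In the remaining group, 18-month females, no gene passed that test, and *C3* and *C4b* lay above naive without overlap. The C1q chains were abundant in every library, with fitted changes under 2-fold.

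Complement is a cascade of blood and tissue proteins that tags material for removal, attracts immune cells and can lyse membranes. C1q starts the classical pathway and acts through C4 and C2. Factor B drives the alternative pathway, which properdin stabilises, and both pathways meet at C3. The small fragments C3a and C5a signal through their receptors on myeloid cells. In nervous tissue, microglia are known as a main source of C1q, and complement tags have been tied to the removal of synapses and debris.

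All mice carried Cx3cr1CreER:R26-tdTomato +/-, in which tamoxifen eye drops switch on the red reporter in cells that use the *Cx3cr1* promoter, which include microglia but also other mononuclear phagocytes. From each retina, 600 live tdTomato-high cells were sorted into lysis buffer, and the RNA was read as amplified cDNA. Mice of both sexes and of 3, 9 or 18 months were uninjected (naive) or were taken at day 12 or day 28 after an intravitreal (IVT) injection of 1e10 genome copies per eye of AAV2 without a transgene. By the paper's methods the vector also carried an oligonucleotide sequence that inhibits TLR9, a sensor of viral DNA. There were no sham-injected libraries, so injection and vector cannot be told apart in these RNA data. The paper did examine PBS-injected eyes by imaging and flow cytometry, and reports no change in its microglial markers there. The 18 groups of sex, age and day held 2 to 4 libraries each, 62 in all (32 female, 30 male). In pooled cells, fewer cells of a type and less RNA per cell cannot be told apart.

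Levels are given as CPM, counts scaled to a common library total, of the batch-corrected table, which holds 1468478 to 9836173 counts per library. A floor of 3 counts equalled 0.305 to 2.04 CPM and covers counting error only. No pair among 79 within groups was identical, and since the labels do not tie libraries to animals, p-values measure the spread between these libraries. In 2 of 64 libraries the sex-linked genes went against the label. The first is a library labelled 18-month female day 28, which was left out, and the second, labelled 9-month male day 28, is not in the batch-corrected table. One 18-month male library is titled day 28 but has day 12 as its time point, and it was kept at day 28. An 18-month female naive library (replicate 1) and a 9-month female naive library (replicate 1) correlated least with their own groups, with a mean r of 0.71 and 0.777 against a median of 0.913.

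The sorted cells carried all 9 microglial markers examined, whose summed level was 33573 to 58142 CPM in naive, 14555 to 37364 at day 12 and 20315 to 45728 CPM at day 28. Of these, *P2ry12* had a median of 7257 CPM in naive, 1112 at day 12 and 3200 CPM at day 28. Of 8 T cell markers, 7 were measured, and their sum was 0 to 161 CPM in naive, with a median of 1.29 CPM. At day 12 it was 1.60 to 347 CPM with a median of 122, and at day 28 17.6 to 170 CPM with a median of 71.3. Monocyte markers summed to 5.03 to 140, 8.28 to 989 and 2.23 to 68.5 CPM at the same days, with *Chil3* at 0 in all naive and day 28 libraries. Neutrophil markers summed to 117 to 277, 68.6 to 362 and 106 to 233 CPM, although *Mpo* and *Elane* among them were at 0 in all 62 libraries. Müller glia and astrocyte markers summed to 3458 to 19651, 1911 to 43007 and 15296 to 46809 CPM, most of it *Apoe*, which microglia also express and whose medians were 6552, 15202 and 26482 CPM. *Rlbp1*, a Müller glia gene, had medians of 26.0, 11.3 and 17.7 CPM. Photoreceptor markers summed to 615 to 3388, 399 to 2676 and 672 to 2493 CPM. The neutrophil sum had medians of 173 CPM in naive, 174 at day 12 and 166 CPM at day 28. Where the other levels moved with the day, they moved with the complement genes too. The part of these cell types in the results was not tested.

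All 9 genes lie on the minus strand of GRCm38.p6, the assembly of mm10, and coordinates are those of RefSeq. The 3 C1q genes are neighbours on chromosome 4, *C1qb* at chr4:136880126-136886200, *C1qc* at chr4:136889801-136892936 and *C1qa* at chr4:136895916-136898844. Chromosome 17 holds *C4b* (chr17:34728139-34743902), *Cfb* (chr17:34856374-34862514) and *C3* (chr17:57203967-57228136). The receptors are *C3ar1* at chr6:122847140-122856157 and *C5ar1* at chr7:16246743-16259540, and *Cfp* is X-linked at chrX:20925454-20931555. *C4b* has a near-identical copy, *C4a*, so reads of the pair can be misplaced. At most 7 counts in a library were given to *C4a*, and 34 in all 62.

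RefSeq promoter sequence was at hand for 6 of the 9 genes and none was used for *C1qa*, *C4b* and *Cfb*. The 250 bases before the start are shown for *C3*, which was scarce in naive cells and rose, and for *C1qb* and *C1qc*, neighbours that were abundant throughout. They are written 5′ to 3′ on the gene's strand (minus), with motif matches in capitals. For *C1qc* the table's start lies a little inside the gene's outer bounds.

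C3, chr17:57228137-57228386: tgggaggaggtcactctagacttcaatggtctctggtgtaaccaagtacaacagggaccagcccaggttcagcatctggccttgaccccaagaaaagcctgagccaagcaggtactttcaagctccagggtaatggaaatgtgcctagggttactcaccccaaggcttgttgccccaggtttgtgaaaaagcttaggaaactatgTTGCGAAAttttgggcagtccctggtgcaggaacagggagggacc
C1qb, chr4:136886201-136886450: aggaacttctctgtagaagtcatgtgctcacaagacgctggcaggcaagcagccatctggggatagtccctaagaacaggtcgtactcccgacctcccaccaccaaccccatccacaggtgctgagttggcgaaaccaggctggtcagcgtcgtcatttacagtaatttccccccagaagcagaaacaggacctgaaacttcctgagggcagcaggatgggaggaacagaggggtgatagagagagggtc
C1qc, chr4:136892915-136893164: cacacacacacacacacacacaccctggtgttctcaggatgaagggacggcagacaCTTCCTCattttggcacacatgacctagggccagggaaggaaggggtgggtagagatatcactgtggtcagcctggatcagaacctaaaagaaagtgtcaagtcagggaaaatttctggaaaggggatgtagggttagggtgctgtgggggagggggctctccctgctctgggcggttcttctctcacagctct

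Searches for 4 motifs covered both strands of the 6 promoters. A C/EBP motif (TTGCNNAA) matched in *C3*, 45 to 38 bases before the start, and is held by 9.56% of 32851 RefSeq promoters. A PU.1 motif (GAGGAAG) matched in *C1qc* on the opposite strand, 194 to 188 bases before the start, and is held by 10.6% of promoters. The interferon motifs ISRE (GAAANNGAAA, in 2.98% of promoters) and GAS (TTCNNNGAA, in 7.02%) matched in none of the 6 windows. Each match or absence describes these letters in this window and not the binding of a factor.

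**Figure D1:**
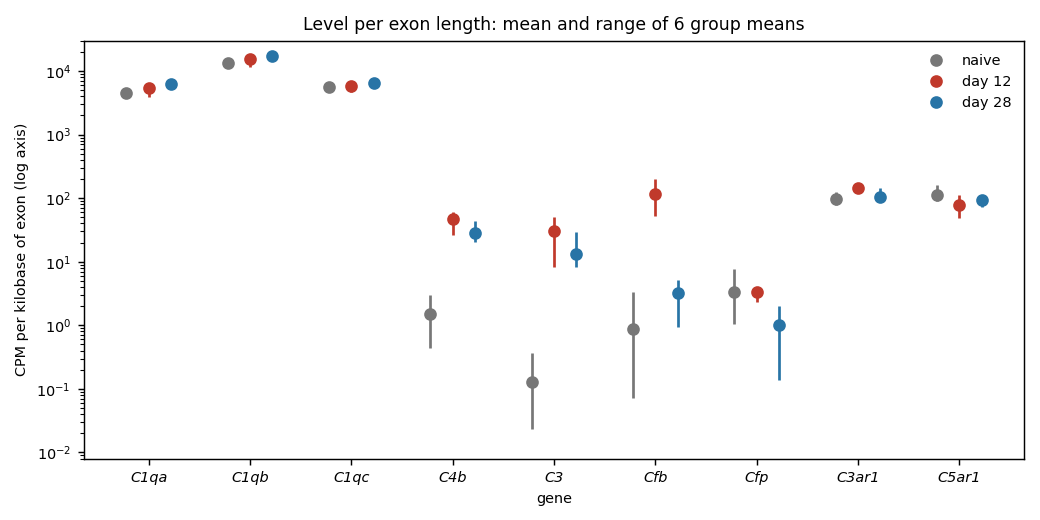
Level of the 9 genes per exon length, in CPM per kilobase on a log axis, in naive, day 12 and day 28 microglia. Points are the mean of the 6 group means and bars their range; the C1q chains stand at the top at every day, while *C3* goes from 0.13 to 30.5 CPM per kilobase between naive and day 12.

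Divided by exon length, the C1q chains held the top 3 places at each day. In naive microglia *C1qb* stood at 13273 CPM per kilobase as the mean of 6 groups, *C1qc* at 5578 and *C1qa* at 4519. *C5ar1* followed at 114 and *C3ar1* at 98.5 CPM per kilobase, with ranges that overlapped between the receptors. *Cfp* (3.33), *C4b* (1.51), *Cfb* (0.858) and *C3* (0.13) were at the bottom. At day 12 *Cfb* had a mean of 114 CPM per kilobase, in the range of the receptors, with *C4b* at 46.3 and *C3* at 30.5. At day 28 *C4b* stood at 28.0 and *C3* at 13.4, but *Cfb* was back at 3.18 CPM per kilobase.

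**Figure D2:**
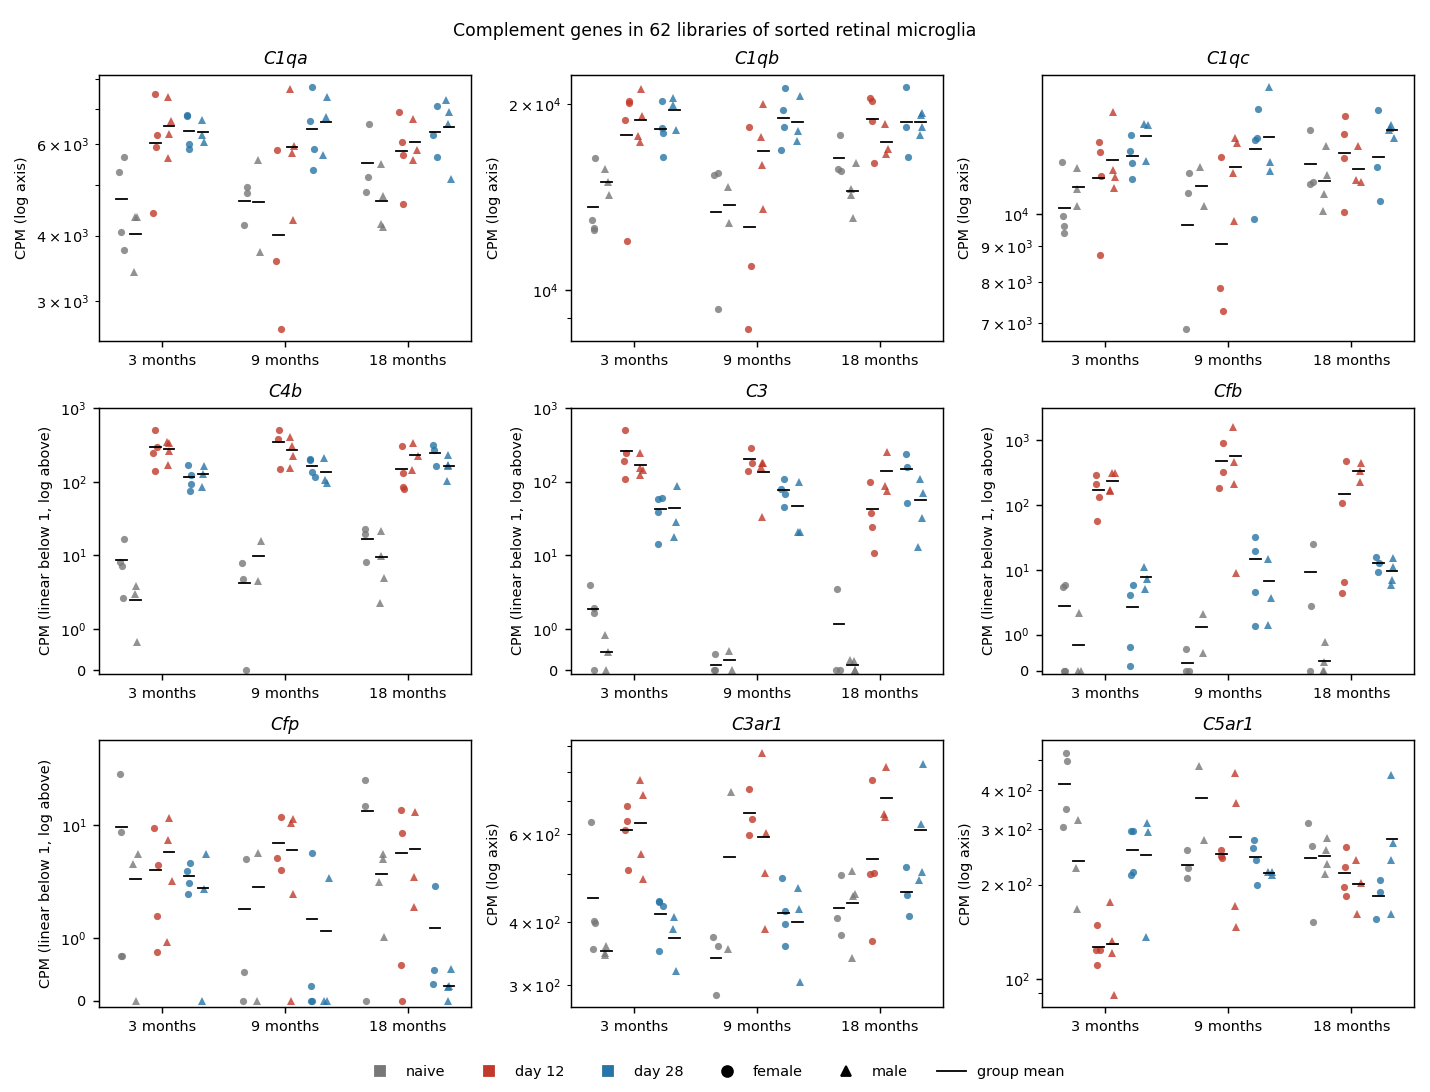
Level of each gene in CPM (log axis, linear below 1 CPM for genes with libraries at 0) in each of the 62 libraries, by sex, age and day. Points are single libraries and bars are group means; *C3* and *C4b* at day 12 and day 28 lie above the naive libraries of the same sex and age in all 12 comparisons, and the C1q chains overlap between days when the groups are pooled.

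C1q is the recognition molecule of the classical pathway, and its 3 chains together made up 1.86% to 4.31% of all counts in a library, with a median of 3.52%. *C1qa* ranged from 3401 to 6543 CPM in naive (median 4768, 19 libraries), from 2648 to 7648 at day 12 (median 5884, 22 libraries) and from 5137 to 7719 at day 28 (median 6539, 21 libraries). *C1qb* had medians of 14667, 18080 and 18395 CPM at these days, and *C1qc* of 10856, 11490 and 12793 CPM. The days overlapped for all 3 chains when libraries of every sex and age were pooled. Within a sex and age, *C1qb* was higher than naive without overlap in 7 of 12 comparisons, *C1qa* in 6 and *C1qc* in 2, and none was lower without overlap. In such a comparison 3.47% to 14.2% of genes over 1 CPM were higher without overlap. Taken by sex and age, no chain passed edgeR's test of a change over 2-fold on either day. The fitted log2 changes lay between −0.16 and 0.78 at day 12, with outermost 95% limits of −1.0 and 1.34, and between 0.14 and 0.74 at day 28, with limits of −0.54 and 1.55.

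The C1q chains were also tested for a change of any size. *C1qa* rose in 3-month males, from 4030 ± 544 CPM in naive (SD, n = 3) to 6478 ± 721 at day 12 (n = 4) and 6314 ± 304 at day 28 (n = 3). The log2 fold change was 0.78 ± 0.13 (SE) at day 12, with an adjusted p of 0.00048 by edgeR's quasi-likelihood test, and 0.74 ± 0.14 at day 28, with an adjusted p of 0.0049. The day 28 call was lost on uncorrected counts without a day term (0.29), and both were lost in 1 edgeR fit over all 62 libraries (adjusted p 0.055 at day 12 and 0.43 at day 28). In the same males 15% of all genes tested changed at day 12 by this rule and 2.51% at day 28. *C1qb* rose there at day 12 by 0.42 ± 0.12 (edgeR adjusted p = 0.023), but the call was lost without naive replicate 2 or 3 or day 12 replicate 4 (adjusted p 0.058 to 0.13), without the filter on low counts (0.11), on uncorrected counts with or without a day term (0.052 and 0.28) and in the fit of 62 libraries (0.40). *C1qc* passed in none of 12 comparisons, with log2 changes of −0.07 to 0.29 at day 12 and 0.14 to 0.46 at day 28 and 95% intervals that together span −0.90 to 1.26.

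*C4b*, *C3* and *Cfb* form the enzymes that split complement further, and they changed most of the 9. At day 12 each of the 3 rose in 5 of 6 comparisons with naive by edgeR's test of a change over 2-fold (adjusted p under 0.05), all but 18-month females. That makes 15 of 54 tests of the 9 genes higher and 0 lower (0 also by DESeq2), where 1 was lower at an unadjusted p under 0.05 in edgeR. Of all genes tested, 1.67% were called higher in 3-month females, 2.77% in 3-month males, 1.77% in 9-month females, 0.774% in 9-month males, 0% in 18-month females and 2.86% in 18-month males. The median log2 change of the 9 genes was 0.54, 0.84, 0.91, 0.48, 0.40 and 0.84 in that order of groups, and the median of all genes was between −0.01 and 0.11.

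**Figure D3:**
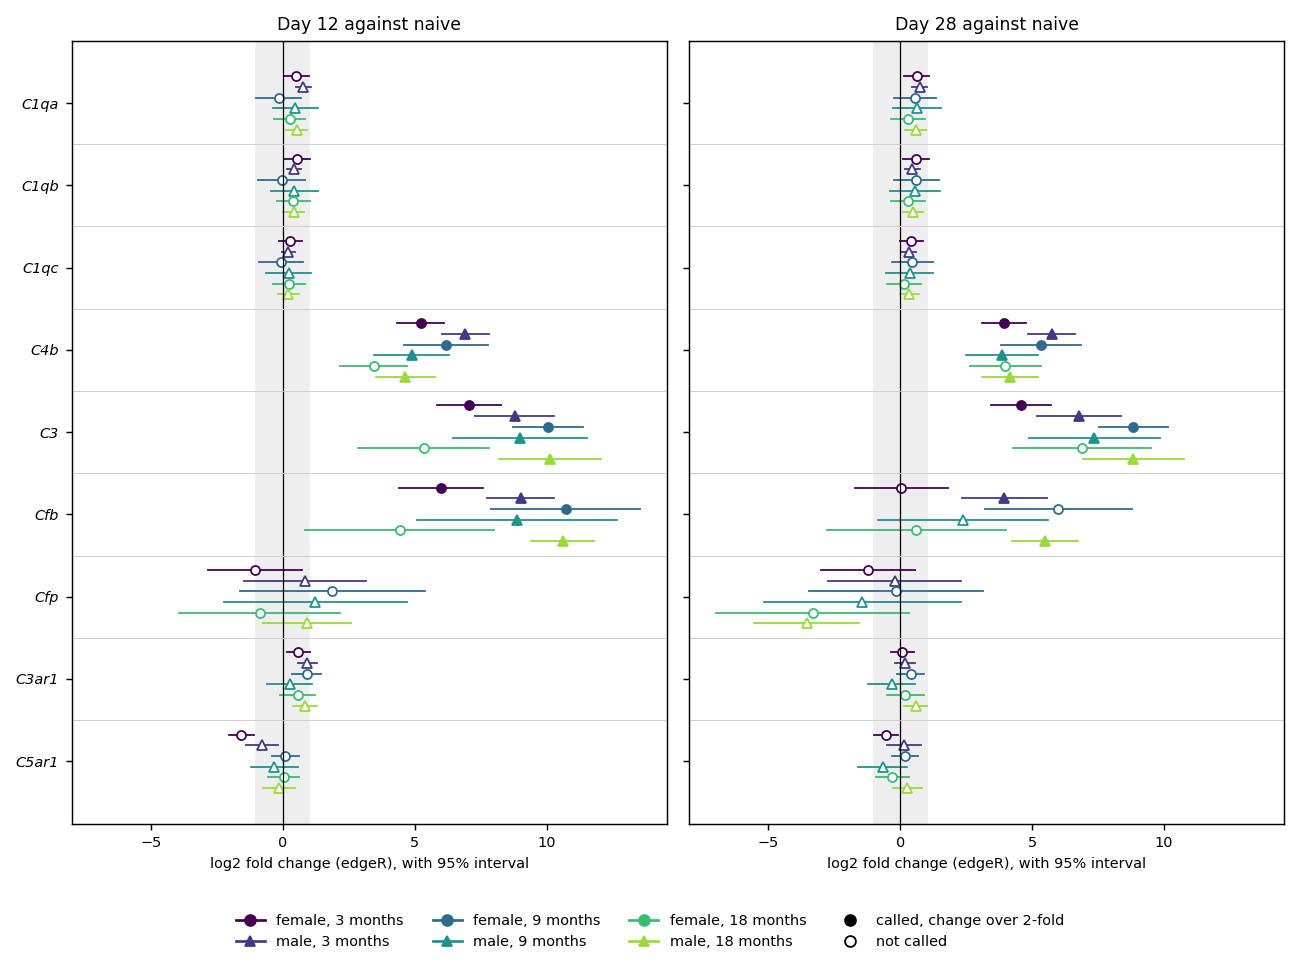
Log2 fold change against naive at day 12 (left) and day 28 (right) for each gene, with 95% intervals, in the 6 groups of sex and age; filled symbols passed edgeR's test of a change over 2-fold, and the grey band marks changes under 2-fold. Filled symbols are found for *C4b*, *C3* and *Cfb* alone, 15 at day 12 and 12 at day 28.

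*C3*, the protein on which all complement pathways converge, was between 0 and 4.00 CPM in the 19 naive libraries, at or under the floor in 15 of them. In 3-month females it stood at 0, 1.67, 1.92 and 4.00 CPM in naive and at 240.1, 190.4, 504 and 107 CPM at day 12, so that the means differed 137-fold. The log2 fold change was 7.06 ± 0.58 (edgeR adjusted p = 2.1e-07). In 3-month males the day 12 libraries held 241, 123, 145 and 151 CPM against at most 0.862 in naive, at least 187-fold higher than the floor of the naive group. These groups did not overlap, and the lowest day 12 library of either sex was far above every naive library.

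In 9-month females *C3* was 137, 177 and 283 CPM at day 12 and at most 0.398 in naive, at least 293-fold higher. In 9-month males it was 179, 32.7, 177 and 155 CPM at day 12 against 0 and 0.476 in naive, at least 246-fold higher, with the lowest value in replicate 2. In 18-month males it was 88.2, 74.7 and 254 CPM against at most 0.255 in naive, at least 211-fold higher. All 3 changes passed the edgeR test, with adjusted p of 3.4e-06, 0.0027 and 4.2e-06. In 18-month females the day 12 libraries held 24.0, 10.8, 97.8 and 37.7 CPM against 0, 3.54 and 0 in naive; the log2 fold change of 5.33 ± 1.14 did not pass (adjusted p = 0.61).

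*C4b*, whose product joins C2 in the classical C3 convertase, was detected above the floor in 17 of 19 naive libraries, unlike *C3*. In 3-month females it was 16.5, 8.10, 2.63 and 7.17 CPM in naive and 298, 249, 512 and 139 CPM at day 12, a 34.8-fold difference of means. In 3-month males naive libraries held 0.678, 3.81 and 3.02 CPM and day 12 libraries 333, 349.8, 171 and 259 CPM, a 111-fold difference. The log2 fold changes were 5.22 ± 0.42 in females and 6.91 ± 0.42 in males (edgeR adjusted p 2.1e-07 and 2.1e-08).

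At 9 months *C4b* was 0, 4.78 and 7.98 CPM in naive females and 151, 386 and 509 CPM at day 12. In males of that age it was 15.5 and 4.44 CPM in naive and 405, 156, 228 and 303 CPM at day 12. In 18-month males it went from 2.30, 21.5, 9.86 and 4.95 CPM to 226, 144 and 332 CPM. The differences were 81.9-fold, 27.3-fold and 24.3-fold, with log2 fold changes of 6.19 ± 0.74, 4.88 ± 0.66 and 4.64 ± 0.52 (edgeR adjusted p 0.00043, 0.0035 and 5.9e-05). In 18-month females the naive libraries held 19.6, 22.6 and 8.11 CPM and the day 12 libraries 79.1, 84.2, 303 and 134 CPM. That difference was 8.96-fold, without overlap, and the log2 fold change of 3.45 ± 0.59 did not pass (adjusted p = 0.56).

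*Cfb* encodes factor B, the protease of the alternative pathway convertase. In 3-month females it was 0, 5.72, 0 and 5.34 CPM in naive and 132, 213, 289 and 57.5 CPM at day 12, and in 3-month males 0, 0 and 2.16 against 167, 310.1, 168 and 309 CPM. At 9 months the female day 12 libraries held 185, 323 and 902 CPM, with at most 0.598 CPM in naive, and those of 18-month males 227, 333 and 449.8 CPM, with at most 0.782 CPM in naive. Day 12 and naive did not overlap in these groups, and the female 9-month value was at least 692-fold and the male 18-month value at least 509.9-fold higher than the naive floor. The log2 fold changes were 5.99 ± 0.77 and 9.01 ± 0.61 at 3 months, 10.71 ± 1.31 in 9-month females and 10.60 ± 0.57 in 18-month males (edgeR adjusted p 1.8e-08 to 0.00043).

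In 9-month males the day 12 libraries held 1602, 8.86, 212 and 466 CPM of *Cfb*, a mean of 572 ± 711 (SD, n = 4), against 2.10 and 0.476 CPM in naive. The log2 fold change was 8.88 ± 1.78 (edgeR adjusted p = 0.026). Replicate 2, the lowest for *Cfb* and *C3*, had 4830 CPM of *P2ry12*, against 611 to 1000 CPM in the other 3 libraries of its group, but its T cell sum of 108 CPM was within their range of 43.2 to 153 CPM. Among 9-month males there are only 2 naive libraries: without replicate 1 the day 12 calls of *C3* and *Cfb* were lost (adjusted p 0.057 and 0.20), and without replicate 2 those of *C4b* and *Cfb* (0.058 and 0.32). The *Cfb* call was also lost on uncorrected counts without a day term (0.084).

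In 18-month females none of the 9 genes was called at day 12 or day 28, nor was any other gene, although 485 and 371 of 11159 had an unadjusted p under 0.05 in edgeR's test of a change over 2-fold. Among the 9 genes 3 had such a p at day 12 and 2 at day 28, all of them higher. DESeq2 with the same design called *C4b* at both days (adjusted p 0.016 and 0.00084) and *C3* at day 28 (0.015), and 1 edgeR fit over all 62 libraries called both genes at both days (0.00022 to 0.011), as did the fit without the filter on low counts (0.0032 to 0.015). Without day 12 replicate 3 the day 28 change of *C4b* passed too (0.038). The background under edgeR was 0% of genes at either day. *C3* and *C4b* of these females were above all naive libraries of their group on both days.

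**Figure D4:**
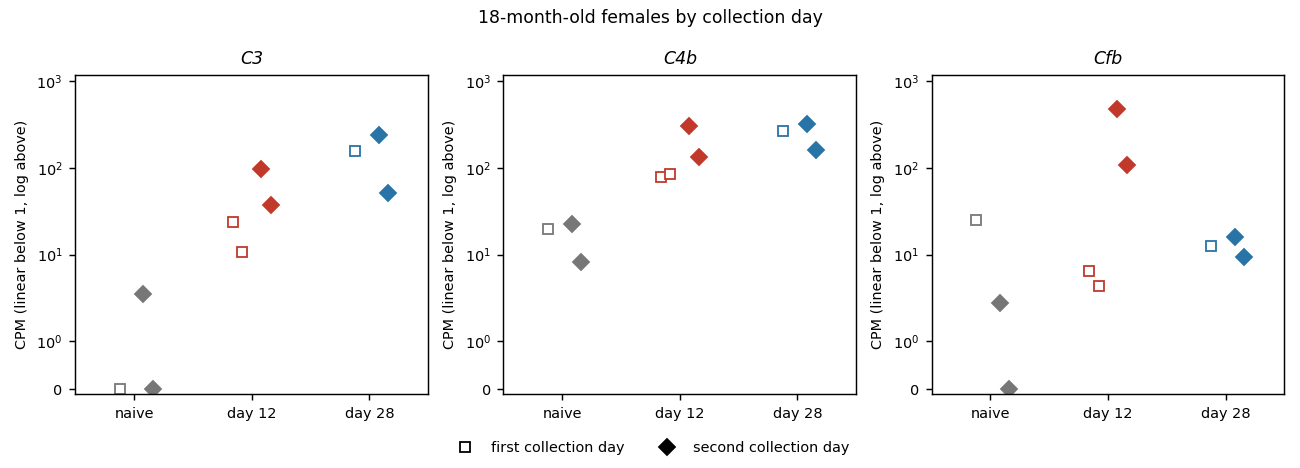
*C3*, *C4b* and *Cfb* in CPM (log axis, linear below 1 CPM) in the libraries of 18-month females, by day and by collection day. At day 12 the 2 libraries of the first collection day hold 6.41 and 4.37 CPM of *Cfb* and the 2 of the second hold 484 and 107 CPM.

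The day 12 libraries of 18-month females split by collection day for *Cfb*. The first day gave 6.41 and 4.37 CPM and the second 484 and 107 CPM, while the naive libraries held 25.3 on the first and 2.72 and 0 CPM on the second. Within a collection day, on counts before batch correction, the log2 difference from naive was −2.56 for the first and 6.71 for the second. The direction was therefore not the same. For *C3* these differences were 4.68 and 5.18, and for *C4b* 2.00 and 3.88. The pair of the first day had 4656 and 3263 CPM of *P2ry12* and a T cell sum of 1.60 and 13.1 CPM. The pair of the second had 1084 and 749 CPM of *P2ry12* and a T cell sum of 328 and 191 CPM; the part of these differences in the result was not tested. The naive library with 25.3 CPM is replicate 1, the one that correlated least with its group.

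Over all 6 groups the within-day log2 differences of *C3* and *C4b* were above zero in 12 of 12 cases at day 12 and in 12 of 12 at day 28. Those of *Cfb* were above zero in 11 of 12 at either day. The collection days therefore gave the same direction for *C3* and *C4b* throughout. Some of these cases rest on a single naive library, as in 9-month males, and day 12 and day 28 share their naive libraries.

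At day 28 *C3* and *C4b* were still called higher than naive over 2-fold in 5 of 6 comparisons each, and *Cfb* in 2 of 6. The group without a call for *C3* and *C4b* was again 18-month females, where both lay above naive without overlap. These 12 calls among 54 tests, with 0 lower by edgeR or DESeq2 (1 by edgeR at an unadjusted p under 0.05), stand beside 0.396% of genes called higher in 3-month females, 0.665% in 3-month males, 0.426% in 9-month females, 0.12% in 9-month males and 0.553% in 18-month males. Both days were set against the same naive libraries, so the 2 sets of calls are not independent.

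*C3* at day 28 was 57.7, 59.5, 14.4 and 38.5 CPM in 3-month females (22.4-fold over naive) and 86.5, 27.8 and 17.8 CPM in 3-month males (at least 50.0-fold). It was 109, 45.8, 78.7 and 68.5 CPM in 9-month females (at least 111-fold) and 99.0, 21.0 and 21.0 CPM in 9-month males (at least 85.1-fold). In 18-month males it was 70.7, 108, 31.7 and 13 CPM (at least 84.6-fold). The lowest of these libraries still held more *C3* than any of the 19 naive libraries. In 18-month females it reached 155, 239 and 51.4 CPM, 126-fold over naive, with a log2 fold change of 6.90 ± 1.20 that did not pass (edgeR adjusted p = 0.21).

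*C4b* at day 28 was 168, 93.8, 74.9 and 124 CPM in 3-month females and 165, 128 and 84.4 CPM in 3-month males, 13.4-fold and 50.4-fold over naive. At 9 months it was 203, 115, 201 and 136 CPM in females and 211, 96.0 and 105 CPM in males, 38.5-fold and 13.8-fold over naive. At 18 months it was 269, 318 and 162 CPM in females (14.9-fold) and 163, 167, 229 and 102 CPM in males (17.1-fold). No day 28 library overlapped its naive group for *C4b* or *C3*. Over both days *C3* and *C4b* were free of overlap in 12 of 12 comparisons and *Cfb* in 8 of 12, where 3.47% to 14.2% of genes over 1 CPM were higher without overlap in a comparison.

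*Cfb* at day 28 was close to naive in 3-month females, with 0.133, 5.87, 0.655 and 4.07 CPM and a log2 fold change of 0.05 ± 0.85 (95% interval −1.71 to 1.80). It rose in 3-month males, to 10.9, 5.09 and 7.26 CPM (3.95 ± 0.77, edgeR adjusted p = 0.047), and in 18-month males, to 7.02, 10.9, 5.76 and 15.2 CPM (5.49 ± 0.59, adjusted p = 0.00043). In 9-month females it was 4.47, 1.36, 32.5 and 19.5 CPM (log2 fold change 5.99 ± 1.30), which passed only the test of a change of any size (adjusted p = 0.044, beside 0.958% of genes), a call lost without any of 7 of the 10 libraries of the fit (0.058 to 0.12), on uncorrected counts with or without a day term (0.076 and 0.059) and in the fit of 62 libraries (0.067). In 9-month males it was 14.9, 3.70 and 1.41 CPM and in 18-month females 12.7, 15.9 and 9.39 CPM, and neither group passed.

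Several day 28 calls rest on single libraries or settings. For *Cfb* in 3-month males the call was lost without naive replicate 1 or 2 or day 28 replicate 1 or 3 (adjusted p 0.12 to 0.27), with DESeq2 (0.24), on uncorrected counts without a day term (0.12) and in the fit of 62 libraries (1). In 18-month males it was lost with the library of conflicting labels at day 12 (0.17) and in the fit of 62 libraries (0.31). In 9-month males *C3* was lost without either naive library or day 28 replicate 4 (0.052 to 0.33), and *C4b* without any of 7 of the 9 libraries (0.061 to 0.60). Both were lost on uncorrected counts without a day term (0.10 each), and *C4b* also with the day term (0.052) and in the fit of 62 libraries (0.053).

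Between day 12 and day 28 *Cfb* fell most of the 9. It dropped by 5.94 on the log2 scale (SE 0.77) in 3-month females, fell by 5.05 (0.44) in 3-month males, fell by 4.73 (0.78) in 9-month females and fell by 5.11 (0.39) in 18-month males (edgeR adjusted p 0.00043, 1.1e-05, 0.0056 and 2.9e-06). *C3* fell by 2.49 on the log2 scale in 3-month females (SE 0.44, adjusted p = 0.0038) and fell by 2.01 in 3-month males (SE 0.41, adjusted p = 0.0087). *C4b* fell in 3-month males by 1.16 on the log2 scale (SE 0.29, edgeR adjusted p = 0.03). In 18-month females the values for *C3* (1.57 ± 0.81) and *C4b* (0.54 ± 0.50) pointed the other way and did not pass (adjusted p 0.95 and 0.99).

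Of 54 such tests 1 was higher and 9 were lower by edgeR at an adjusted p under 0.05. The share of all genes called was 1.32% in 3-month females, 3.4% in 3-month males, 2.49% in 9-month females, 0% in 9-month males, 0% in 18-month females and 4.26% in 18-month males. In 9-month males and 18-month females, with no gene called, 1202 and 528 genes had an unadjusted p under 0.05, among them 3 and 1 of the 9. The *C3* call of 3-month males was lost without day 28 replicate 2 or 3 (adjusted p 0.075 and 0.052), and that of *C4b* without day 12 replicate 1 or 4 or day 28 replicate 2 or 3 (0.073 to 0.18). On uncorrected counts without a day term the *C3* falls of both 3-month groups (0.085 in females, 0.057 in males) and the *C4b* fall (0.19) were lost. In the fit of 62 libraries these 3 (0.078, 0.28 and 0.46) and the *Cfb* fall of 3-month males (0.074) were lost.

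*Cfp* encodes properdin, which stabilises the alternative convertase and is made largely by myeloid cells. It was scarce, at 0 to 28.2 CPM in naive (median 4.52), 0 to 13.7 CPM at day 12 (median 4.22) and 0 to 5.67 CPM at day 28 (median 0.489). It was at or under the floor in 24 of 62 libraries, 12 of them among the 21 of day 28. Against naive it passed no test, with log2 changes of −1.07 to 1.88 at day 12 and −3.54 to −0.16 at day 28. In 18-month males it fell from 1.90, 13.1 and 3.48 CPM at day 12 to 0, 0.214, 0.24 and 0.507 CPM at day 28, by 4.47 on the log2 scale (SE 0.98, edgeR adjusted p = 0.014). That call was lost without day 12 replicate 2 (adjusted p = 0.21), with the library of conflicting labels at day 12 (0.11) and in the fit of 62 libraries (0.19).

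*C3ar1*, the receptor of C3a, was present in every library, at 286 to 728 CPM in naive (median 378), 367 to 873 CPM at day 12 (median 624) and 304 to 829 CPM at day 28 (median 431). No change passed 2-fold. For a change of any size it rose at day 12 in 3-month males, from 344, 359 and 347 CPM to 547, 769, 717 and 489 CPM (log2 0.93 ± 0.17, edgeR adjusted p = 0.0011). It also rose in 9-month females, from 286, 358 and 373 to 597, 739 and 643 CPM (0.91 ± 0.26, adjusted p = 0.041). In 18-month males it rose from 505, 450.4, 456 and 339.7 to 658, 648 and 818 CPM (0.84 ± 0.22, adjusted p = 0.017). These 3 groups did not overlap with naive, while the other 9 comparisons did. Of genes over 1 CPM, 11.1% were higher without overlap in 3-month males at day 12. The share was 14.2% in 9-month females and 10.9% in 18-month males. By the test of any size, 15% of genes changed in 3-month males, 8.76% in 9-month females and 13.3% in 18-month males.

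The *C3ar1* call in 9-month females was lost without any one of the 10 libraries of the fit (adjusted p 0.051 to 0.13), and that of 18-month males without naive replicate 4 or day 12 replicate 2 (0.060 and 0.055). On uncorrected counts without a day term both were lost (0.19 and 0.26). By day 28 *C3ar1* had fallen in 3-month males, to 320.1, 388 and 409 CPM, by 0.76 on the log2 scale (SE 0.17, edgeR adjusted p = 0.02). This drop was lost without day 12 replicate 3 or day 28 replicate 1 or 2 (0.058 to 0.11), on uncorrected counts with or without a day term (0.057 and 0.16) and in the fit of 62 libraries (0.21).

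*C5ar1*, the receptor of C5a, was lower than naive where it changed. In 3-month females it was 497, 306, 349 and 528 CPM in naive, 124, 124, 111 and 148 CPM at day 12 and 296, 298, 215 and 219.9 CPM at day 28. Day 12 was below every naive library, and day 28 lay between. The log2 fold change at day 12 was −1.57 ± 0.22, which passed for a change of any size (edgeR adjusted p = 4.9e-05, beside 13.6% of genes) and missed the test over 2-fold (0.07). Within collection days, on counts before batch correction, the log2 difference was −1.37 and −2.10, lower on each. From day 12 to day 28 it rose by 1.05 ± 0.22 (adjusted p = 0.017), a call lost without day 12 replicate 1 or 2 or day 28 replicate 1 or 2 (0.057 to 0.077), on uncorrected counts with or without a day term (0.062 and 0.22) and in the fit of 62 libraries (0.11).

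In 3-month males *C5ar1* was 321, 225 and 168 CPM in naive and 88.9, 121, 176 and 132 CPM at day 12, which overlap. In 9-month females it was 258, 226 and 209 CPM in naive and 259, 244 and 247 CPM at day 12, and in 18-month females 152, 314 and 266 against 264, 227, 184 and 196 CPM. No comparison with naive outside 3-month females passed. In 9-month males at day 28 *C5ar1* averaged 218 CPM against 378 CPM in 2 naive libraries, lower without overlap. It was higher than naive without overlap in 0 comparisons, and the share of all genes lower without overlap was not counted. In all, the test of any size called 20 of 54 tests higher and 1 lower at day 12, and 14 higher and 0 lower at day 28 (by edgeR; 2 lower at an unadjusted p under 0.05 and 1 called lower by DESeq2). By this rule the share of all genes called in either direction at day 12 was 13.6% in 3-month females and 15% in 3-month males. It was 8.76% in 9-month females and 13.3% in 18-month males. At day 28 the share was 2.51% in 3-month males and 0.958% in 9-month females. The other 6 comparisons with naive, from both days, held 1.3% when pooled.

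The change in *C5ar1* differed with age in females. The day 12 change of 9-month females minus that of 3-month females was 1.67 ± 0.32 on the log2 scale (edgeR adjusted p = 0.016, beside 0.695% of genes at an adjusted p under 0.1), and that of 18-month females was 1.59 ± 0.34 above the 3-month change (adjusted p = 0.098, beside 0.323%). The 2 contrasts share the 3-month libraries. Naive 3-month females averaged 420 CPM, against 231 CPM at 9 months and 244 CPM at 18 months. At day 12 the means were 127, 250 and 218 CPM, so both the naive and the day 12 levels enter these contrasts. The first held without any one of its 22 libraries (adjusted p 0.013 to 0.041), while the second was lost without 18 of its 22 (up to 0.22). On uncorrected counts with no term for collection day neither passed (0.37 and 0.23). No other of the 72 tests of this kind passed, and 0.00688% of genes did in the other 6 contrasts.

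Between ages at 1 day, *C3* and *C4b* were higher at 18 than at 3 months in females at day 28. *C3* averaged 148 ± 93.8 CPM (SD, n = 3) at 18 months and 42.5 ± 21.0 (n = 4) at 3 months, a log2 difference of 1.73 ± 0.38 (edgeR adjusted p = 0.047, beside 1.01% of genes at an adjusted p under 0.1). *C4b* averaged 250.0 ± 79.9 and 115 ± 40.8 CPM, a log2 difference of 1.06 ± 0.23 (adjusted p = 0.045). The groups overlapped for *C3*, where 18-month replicate 4 held 51.4 CPM, and for *C4b*, where it held 162 CPM against 168 in a 3-month library. Within collection days, on counts before batch correction, the log2 differences were 1.57 and 1.96 for *C3* and 1.10 and 1.25 for *C4b*.

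Both age calls depended on single libraries. Without 18-month day 28 replicate 2 or 3 the adjusted p was 0.14 and 0.45 for *C3* and 0.14 and 0.33 for *C4b*, and without 3-month day 28 replicate 2 or 3 it was 0.13 and 0.14 for *C4b*. With the left-out library included they became 0.10 (*C3*) and 0.13 (*C4b*), and on uncorrected counts without a day term 0.54 and 0.76. In 1 fit over all 62 libraries they were 0.97 and 0.98, and with DESeq2 the *C3* call was lost (0.17). In the other 11 comparisons of ages none of the 9 genes passed, with 0.311% of genes called.

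The change from naive was not shown to differ between the sexes for any of the 9 genes. Of 54 tests of male against female change, 0 passed by edgeR at an adjusted p under 0.1, 8 had an unadjusted p under 0.05 (all with the male change above the female), and DESeq2 called 0, where 0.0124% of genes passed over the 6 contrasts. Without the filter on low counts 5 passed, 4 with a larger male change (*C4b* and *Cfb* at both days at 3 months) and 1 with a larger female change (*Cfb* at day 28 at 9 months). The intervals are wide: for *C3* the difference of log2 changes was −1.46 to 4.78 over the 6 contrasts, with 95% limits from −5.31 to 8.61. For *C1qa* it was 0.06 to 0.64, with limits from −1.12 to 1.83.

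The rest of the system was read from a list of 42 other complement genes, of which 18 or 19 had enough counts to be tested in a comparison. At day 12 the numbers called higher and lower over 2-fold were 3 and 2 in 3-month females, 4 and 1 in 3-month males, 2 and 1 in 9-month females, 1 and 0 in 9-month males and 4 and 1 in 18-month males. Of all genes tested, 1.67%, 2.77%, 1.77%, 0.774% and 2.86% were called higher in these groups, in that order. Called lower were 84 of 11124, 112 of 11129, 85 of 11273, 21 of 11630 and 148 of 11397 genes. At day 28 the list had 1 higher in 3-month males, 2 in 9-month females and 2 in 18-month males. Beside these, 0.665%, 0.426% and 0.553% of all genes were called higher. In 18-month females 0 were called. By pathway, 4 of 13 classical and lectin genes were tested in any comparison, of which 2 had a call, and 7 of 12 regulators, of which 3 had one. Of 9 receptors 7 were tested and 2 had a call, of 7 terminal pathway genes 1 was tested without a call, and *Cfd*, the protease that activates factor B, was not tested.

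In each of the 12 comparisons with naive, 0% to 2.86% of all genes were called higher over 2-fold. Of that list, *Serping1*, the inhibitor of C1r and C1s, was higher in 7 of 12 comparisons. It was at most 2.45 CPM in naive, up to 188 CPM at day 12 (median 42.5) and up to 15.5 CPM at day 28 (median 3.18). *C2*, the protease that pairs with C4b, was higher in 6, with medians of 1.77, 30.4 and 19.5 CPM in naive, day 12 and day 28 and called log2 changes of 3.17 to 6.98. *Itgax*, a chain of complement receptor 4, was higher in 4, with medians of 14.3, 90.1 and 44.6 CPM and called log2 changes of 2.09 to 3.63.

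Across the 18 group means of log2 CPM, the genes most like each of the 9 among 13584 were named by Pearson's r as a description. These group means share their naive groups, depth and collection days. The C1q chains were most like each other, with r of 0.952 for *C1qa* and *C1qb* and 0.963 for *C1qb* and *C1qc*, followed by *Lag3* (0.922 with *C1qa*). *C4b* was most like *Cd300lf* (0.981), *H2-Q6* (0.975) and *C3* (0.972), and *C3* most like *Ly6i* (0.982), *H2-Q6* (0.977) and *P2ry14* (0.975). *Cfb* was most like *Gbp3* (0.977), *Gbp2* (0.976) and *Epsti1* (0.97). *C3ar1* was most like *Pigz* (0.931), *C5ar1* most like *Myc* (0.838), and *Cfp* had no gene over 0.792.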

How the data were processed

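The authors aligned single-end reads to mm10 with STAR 2.7.8a after bcl2fastq 2.20, counted them per gene with featureCounts against UCSC refGene, and deposited the counts of 25239 genes in 64 libraries. A second deposited table holds counts of 63 libraries after the authors removed the collection day with ComBat_seq in R 4.2.2. Neither is scaled for depth, and the kit does not keep strand, so reads of overlapping genes on either strand cannot be told apart.

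The batch-corrected counts of 62 libraries were analysed with edgeR 4.0.16 (R 4.3.3): TMM scaling, filterByExpr by group, and quasi-likelihood fits for each sex and age. Each day was set against naive with glmTreat at a log2 fold change of 1 and with glmQLFTest for a change of any size, at a Benjamini-Hochberg adjusted p under 0.05 over all genes tested. The comparison of day 28 with day 12 used glmQLFTest at 0.05, and ages, sex by day and age by day used it at 0.1. CPM are counts divided by the library total, times 1e6. Fold changes of groups at or under 3 counts in every library were set against the floor, 3 counts in each library, averaged as CPM over the group. Within-day differences are differences between means of log2 of CPM plus 0.5, taken on the counts before batch correction. Likeness used log2 CPM with a prior count of 2.

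The genes, lists and tests were chosen with earlier results of these data known. Every one of the 9 genes is named, and of the 42 other complement genes those called in at least 3 of 12 comparisons with naive, except 1 that is not reported here. Alternatives were DESeq2 1.42.0, its size factors, no filter, the counts before batch correction with the collection day in the model or left out of it, a replicate block, 1 fit of 62 libraries, both other treatments of the library with conflicting labels, the left-out library, and each library left out. Leaving out the 2 naive libraries least like their groups was chosen after seeing the data. The fits were tested on simulated data. Promoters are those of RefSeq for GRCm38.p6, matched by symbol.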

Additional observations from a re-analysis of the deposited data

Results flagged for a closer look

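In 5 of 81 sets of 1 gene in a group of 4 libraries, 1 library stood apart from the other 3 by Dixon's criterion at the 95% level, where chance alone gives about 1 in 20. *C1qb* in 3-month females was 16375 CPM in naive replicate 3 against 12508 to 13012 in the others, and 12031 CPM in day 12 replicate 3 against 18860 to 20245. *C3ar1* in 3-month females at day 28 was 349.8 CPM in replicate 4 against 431 to 441. *Cfp* in 9-month females at day 28 was 5.67 CPM in replicate 2 against 0 to 0.232. *C3* in 9-month males at day 12 was 32.7 CPM in replicate 2 against 155 to 179 CPM, the library that also held the least *Cfb* of its group.

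The change of *C5ar1* at day 12 differed between ages in females by edgeR's interaction test, by 1.67 on the log2 scale at 9 against 3 months (adjusted p = 0.016) and by 1.59 at 18 against 3 months (adjusted p = 0.098). The call at 18 months was lost without 18 of its 22 libraries. Neither passed on uncorrected counts with no term for collection day.

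Both libraries that were left out of the comparisons showed complement genes above naive. The library labelled 18-month female day 28 held 176 CPM of *C4b*, 127 of *C3* and 242 of *Cfb*, against at most 22.6, 3.54 and 25.3 CPM in the naive libraries of that group. Its *Cfb* was also above the 9.39 to 15.9 CPM of the other 3 day 28 libraries. The library labelled 9-month male day 28 held 244 CPM of *C4b*, 144 of *C3* and 17.8 of *Cfb* in the uncorrected table, against at most 15.1, 0.843 and 1.86 CPM in naive. In both, the sex-linked genes went against the label.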

How the results depend on the processing

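The 15 calls over 2-fold against naive at day 12 stayed between 14 and 17 under the other settings and 13 and 15 with any one library left out. The 12 at day 28 were 9 to 15 and, with a library left out, 10 to 13, and none was lower at day 28 under any setting run. At day 12 the count lower than naive was 0, and 1 with the plain quasi-likelihood test and a log2 fold change over 1 (0 to 1 with a library left out). For a change of any size the 20 calls higher at day 12 were 16 to 24 and the 14 at day 28 10 to 18, with 19 to 23 and 12 to 15 on leaving out a library. The count lower was 2 at day 12 and 1 at day 28 with DESeq2 and without a filter, and 1 to 2 and 0 to 1 with a library left out.

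From day 12 to day 28 the 1 call higher became 2 with DESeq2 and without a filter, and 0 on uncorrected counts with or without the collection day and in 1 fit of 62 libraries (0 to 3 with a library left out). The 9 lower became 5 on uncorrected counts without the collection day and 4 in 1 fit of 62 libraries (6 to 10 with a library left out). Between ages the 2 calls higher became 4 with DESeq2 (which called *C4b* but not *C3* of those 2), 6 without a filter, 0 on uncorrected counts without the collection day and in 1 fit of 62 libraries, and 1 with the left-out library included (0 to 4 with a library left out). The 0 lower became 1 with DESeq2, without a filter and in 1 fit of 62 libraries (0 to 2). For sex by day the 0 higher and 0 lower became 4 and 1 without a filter (0 to 1 and 0 to 0). For age by day the 2 higher became 6 without a filter, 0 on uncorrected counts without the collection day, 1 with a replicate block and 1 without the 2 naive libraries least like their groups, a setting chosen after seeing the data (1 to 2 with a library left out). The 0 lower became 2 without a filter (0 to 1). With no filter more genes were tested. The cause of the other shifts was not tested.

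The log2 change of *Cfb* in 18-month females at day 28 turned from 0.61 to −0.02 without naive replicate 3, and was 3.31 without naive replicate 1. By Spearman's rho in place of Pearson's r, 0 of the 3 genes most like *C4b*, *C3* and *C5ar1* and 1 of those of *Cfb* were shared. Libraries of the same replicate number did not deviate together (mean r −0.0343 over 54 pairs, with 1.85% over 0.1, against 0.0116 over 159 other pairs), so the numbers do not pair them. With the replicate block the counts were 14 and 9 over 2-fold at day 12 and day 28, 17 and 11 for any size, 8 lower between the days and 3 between ages. Depth limits the scarce genes most: *C3*, *Cfb* and *Cfp* were at or under 3 counts in 15, 15 and 24 of 62 libraries.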
